A study of Rattus norvegicus with 45 samples.

Results

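The 9 genes described here, Sqle, Lss, Cyp51, Msmo1, Nsdhl, Hsd17b7, Ebp, Sc5d and Dhcr7, encode enzymes that turn squalene into cholesterol. They were taken from the platform annotation by gene symbol, which gave 15 of the 31042 probe sets on the array. Of these, 14 passed the filter on low signal and were tested among 21729 probe sets, and all 9 genes had at least 1 tested probe set. The rule used no measured value, but the members were chosen with earlier results of these data known.

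Female SD rats received vehicle (0.5% methylcellulose) or the statin cerivastatin once daily for 14 days, with or without treadmill exercise. The exercised animals ran 20 min per day at 20 m/min on 5 days per week. Gastrocnemius, a mainly fast-twitch calf muscle, was measured on 30 arrays in 8 groups: vehicle, 0.1, 0.5 and 1.0 mg/kg/day, each without and with exercise. Soleus, a mainly slow-twitch calf muscle, was measured on 15 arrays in 4 groups: vehicle and 1.0 mg/kg/day, each without and with exercise. Of the 12 groups, 9 had 4 arrays and 3 had 3 arrays, namely unexercised 1.0 mg/kg/day in either muscle and exercised 0.5 mg/kg/day in gastrocnemius. The study set out to learn what the drug does, what exercise adds to it, and how the fibre types of the muscles differ in sensitivity. Soleus samples whose titles do not mention exercise were taken as unexercised. The series describes the replicates as biological. The age of the animals is not given in the sources used here.

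Cholesterol synthesis starts from acetyl-CoA and passes through mevalonate, isoprenoids and squalene. Statins inhibit the reductase that makes mevalonate, so they act well upstream of the steps described here. Squalene epoxidase (Sqle) adds oxygen to squalene, lanosterol synthase (Lss) closes the rings, and the remaining enzymes remove methyl groups and move or reduce double bonds until cholesterol is formed. When sterols in the endoplasmic reticulum run low, the membrane-bound factor SREBP-2 is released, enters the nucleus and switches on the genes of the whole pathway, usually together with the factors NF-Y and Sp1. In muscle the pathway runs at a low rate, and statins are known for muscle damage as a side effect.

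Promoter letters of the gene family are shown because its members are known as shared targets of these factors. RefSeq promoters of build GRCr8 were found for 8 of the 9 genes, all but Sqle, and the 250 bases before the start of the gene were searched on both strands. Each sequence below is written 5′ to 3′ along the strand of the gene, with matches in capitals. The capitals mark CCAAT (the NF-Y box, ATTGG on the other strand), GGGCGG (the GC box bound by Sp1, CCGCCC on the other strand) and CACNCCAC (the core of a sterol response element). Msmo1 and Dhcr7 are shown because they rose furthest among the genes with a promoter in the table. Nsdhl is shown because its tested probe set of highest mean did not pass in any comparison. Ebp is shown because it holds the only CACNCCAC match. All of them lie on the plus strand, at chr16:29746863-29747112 for Msmo1, chr1:208444184-208444433 for Dhcr7, chrX:155817110-155817359 for Nsdhl and chrX:16971212-16971461 for Ebp.
Msmo1: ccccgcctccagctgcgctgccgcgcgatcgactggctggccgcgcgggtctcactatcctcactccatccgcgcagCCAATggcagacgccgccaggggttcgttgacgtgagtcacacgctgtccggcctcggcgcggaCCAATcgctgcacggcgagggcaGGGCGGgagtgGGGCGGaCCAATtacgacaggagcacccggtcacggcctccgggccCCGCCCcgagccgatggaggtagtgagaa
Dhcr7: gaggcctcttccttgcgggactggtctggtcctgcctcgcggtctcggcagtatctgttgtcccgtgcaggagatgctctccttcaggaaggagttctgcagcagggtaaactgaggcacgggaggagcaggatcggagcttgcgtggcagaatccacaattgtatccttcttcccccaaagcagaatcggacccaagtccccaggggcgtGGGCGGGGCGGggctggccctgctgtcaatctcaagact
Nsdhl: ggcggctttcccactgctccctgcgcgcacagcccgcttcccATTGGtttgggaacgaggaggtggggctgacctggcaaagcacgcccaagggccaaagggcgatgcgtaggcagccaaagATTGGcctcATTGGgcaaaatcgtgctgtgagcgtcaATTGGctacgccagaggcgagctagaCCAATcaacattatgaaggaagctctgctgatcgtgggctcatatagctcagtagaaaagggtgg
Ebp: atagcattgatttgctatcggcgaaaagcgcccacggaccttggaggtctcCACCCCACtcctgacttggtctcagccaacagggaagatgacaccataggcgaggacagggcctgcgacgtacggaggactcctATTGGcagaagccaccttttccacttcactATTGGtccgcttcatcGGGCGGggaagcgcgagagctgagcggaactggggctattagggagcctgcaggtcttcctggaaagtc

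The CCAAT motif was present in 6 of the 8 promoters and in 34.0% of all 33469 promoters of the table. Nsdhl held 5 copies, Msmo1 and Hsd17b7 held 3 each, Ebp held 2, and Lss and Sc5d held 1 each, while Cyp51 and Dhcr7 had none in this window. The GGGCGG motif was present in 7 of 8, all but Nsdhl, against 30.5% of all promoters. Dhcr7 carried 2 overlapping copies, which start 39 and 34 bases before the start of the gene. CACNCCAC was found in Ebp, 199 bases before its start, and in 4.89% of all promoters. The longer TCACNCCAC, which contains CACNCCAC, was found in 0 of 8 and in 0.974% of all. These matches are letters in a window and not measured binding sites.

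Before the results, the arrays that stood apart are given. On 4 arrays the summed signal of 10 Schwann cell and myelin markers lay between 47534 and 95918, against at most 26003 on the other arrays. They were replicate 3 of unexercised 0.1 mg/kg/day gastrocnemius, replicate 3 of unexercised vehicle soleus, replicate 1 of exercised 1.0 mg/kg/day soleus and replicate 3 of unexercised 1.0 mg/kg/day gastrocnemius. The ratio of 5′ to 3′ actin signal, a sign of RNA quality, was 0.116 on the first of these and between 0.245 and 0.707 on the others of the 45. Fast fibre genes marked the muscles as labelled: their summed signal was 762573 to 882722 in vehicle gastrocnemius and 208590 to 493845 in vehicle soleus. Slow fibre genes summed to 61374 to 495534 in vehicle gastrocnemius and 442819 to 700017 in vehicle soleus, so these ranges overlapped. Gastrocnemius samples started from about 4 µg and soleus samples from about 3 µg of RNA, so input and muscle cannot be told apart.

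The highest dose in exercised gastrocnemius gave the clearest difference. Of the 9 genes, 7 were higher at 1.0 mg/kg/day than with vehicle: Sqle, Lss, Cyp51, Msmo1, Hsd17b7, Ebp and Dhcr7. The median difference over the 9 genes was 1.86 on the log2 scale, against -0.01 over all probe sets tested. In this comparison 43.4% of all probe sets passed the test and 23% were higher. All differences below are in log2(signal + 12.4), with the standard error (SE) of the limma fit and its Benjamini-Hochberg adjusted p, and 0.05 was the threshold. Signals are the deposited linear values.

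**Figure D1:**
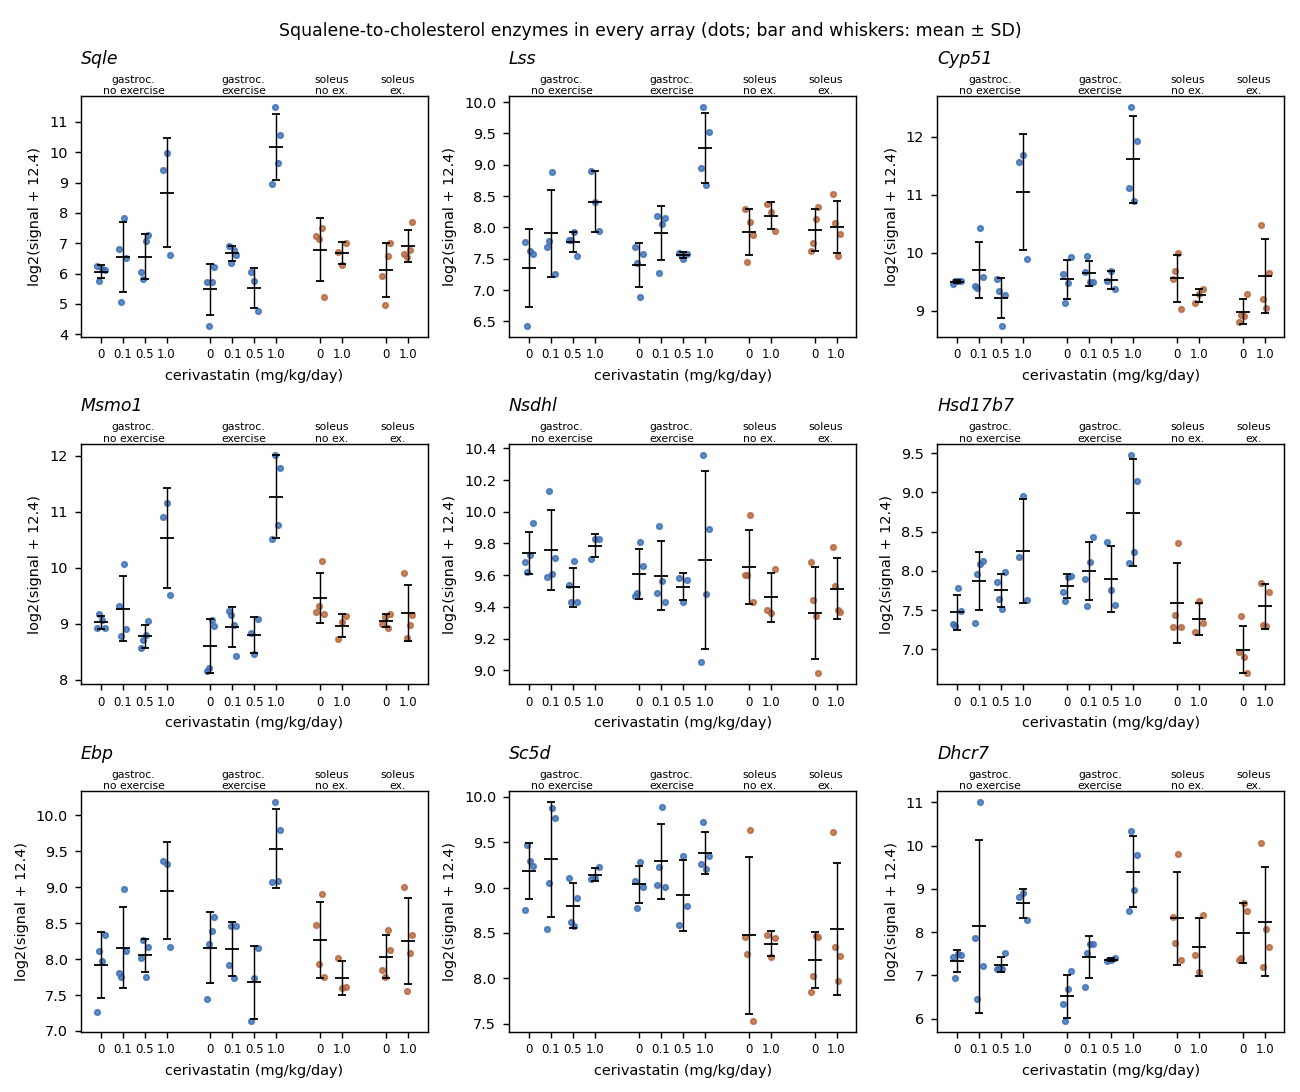
Levels of the 9 genes on all 45 arrays, as log2(signal + 12.4) of the probe set that represents each gene, against the cerivastatin dose in mg/kg/day (0 is vehicle). Dots are arrays (blue gastrocnemius, brown soleus), bars and whiskers the mean ± SD of a group. In exercised gastrocnemius the 1.0 mg/kg/day arrays lie above the vehicle arrays for 7 genes, and Nsdhl and Sc5d overlap. How many of all probe sets separate in this way was not counted, while 43.4% of them passed the test in this comparison.

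Sqle, the first oxygen-requiring enzyme of the pathway, had the largest difference of the 9 genes. Its signal on the 4 exercised 1.0 mg/kg/day gastrocnemius arrays was 490.0, 2870, 790 and 1523, in order of replicate number. With vehicle and exercise it was 39.8, 7.0, 40.3 and 62.1. Every treated array was thus above every vehicle array, with no overlap. The difference was 4.69 ± 0.62 (SE; n = 4 and 4; limma adjusted p = 9.58e-06). Because the vehicle signals are close to the offset of 12.4, this fold change understates the ratio of the signals.

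Lss, which folds squalene epoxide into lanosterol, was measured by 2 probe sets. The tested one read 483, 953, 394 and 720 at 1.0 mg/kg/day with exercise and 194, 161, 107 and 178 with vehicle and exercise. The groups did not overlap, and the difference was 1.86 ± 0.33 (limma adjusted p = 0.000109). The other probe set fell below the filter. It read 255 and 217 on replicates 2 and 4 of exercised 1.0 mg/kg/day gastrocnemius and at most 38.8 on the other 43 arrays.

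Cyp51, the lanosterol demethylase, removes the first methyl group. Its representing probe set, of a kind that can match related transcripts, read 2206, 5836, 1884 and 3875 at 1.0 mg/kg/day with exercise, and 780, 546, 702 and 961 with vehicle. All treated arrays were higher, by 2.07 ± 0.33 (limma adjusted p = 3.79e-05). A second probe set gave 1.61 ± 0.36 (limma adjusted p = 0.000784), so both probe sets passed in the same direction.

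The next steps, the removal of the other methyl groups at carbon 4, are shared by Msmo1, Nsdhl and Hsd17b7. Msmo1, the oxidase of this complex, read 1445, 4145, 1731 and 3536 at 1.0 mg/kg/day with exercise. With vehicle and exercise it read 271, 283, 524 and 484, so the lowest treated array was far above the highest control. Its difference was 2.68 ± 0.34 (limma adjusted p = 7.11e-06). Hsd17b7, the 3-ketosteroid reductase of the complex, read 261, 703, 290 and 554 against 200.3, 184, 230.3 and 234. The groups were separate but close, and the difference was 0.94 ± 0.30 (limma adjusted p = 0.0121). Its weaker probe set did not pass, at 1.12 ± 0.60 (limma adjusted p = 0.135), and with quantile normalization the first probe set did not pass either, at 0.68 (limma adjusted p = 0.0631).

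Nsdhl, the decarboxylating dehydrogenase between them, did not pass. Its signal was 519, 1301, 701 and 939 at 1.0 mg/kg/day with exercise and 696, 706, 884 and 797 with vehicle. The treated arrays lay on both sides of the controls. The difference was 0.09 ± 0.19, with a 95% interval from -0.30 to 0.48 (limma adjusted p = 0.735). Under quantile normalization it was -0.12 and under median centring -0.01, so its sign depends on the scaling. The other Nsdhl probe set gave 0.39 ± 0.25 (limma adjusted p = 0.217).

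Of the last enzymes, Ebp and Dhcr7 were higher and Sc5d did not pass. Ebp, the isomerase that moves the double bond of the B ring, read 524, 1144, 533 and 873 at 1.0 mg/kg/day with exercise and 162, 284, 323 and 371 with vehicle. No arrays overlapped, and the difference was 1.37 ± 0.34 (limma adjusted p = 0.00181). Dhcr7, the reductase that makes cholesterol from 7-dehydrocholesterol, read 348, 1280, 488 and 858 against 67.9, 49.3, 90.5 and 125. All treated arrays were higher, by 2.88 ± 0.57 (limma adjusted p = 0.000262). Sc5d, the desaturase that makes 7-dehydrocholesterol, read 602, 831, 574 and 642 against 526, 427, 608 and 504. These ranges overlapped, and the difference of 0.35 ± 0.25 had a 95% interval from -0.17 to 0.87 (limma adjusted p = 0.275). The other Sc5d probe sets gave 0.59 ± 0.26 (limma adjusted p = 0.0694) and -0.18 ± 0.28 (limma adjusted p = 0.647), which differ in sign.

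**Figure D2:**
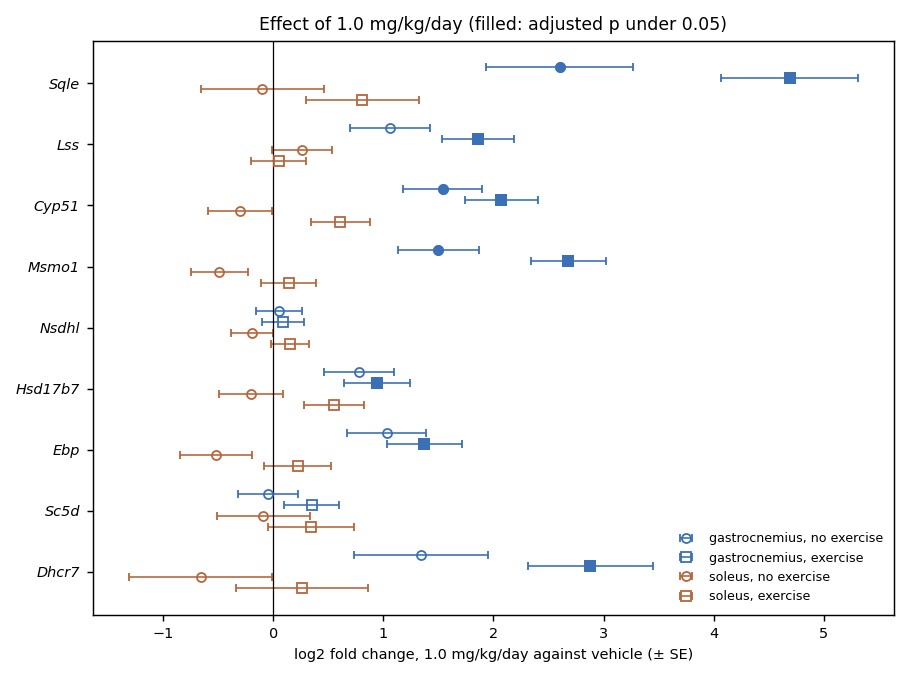
Difference between 1.0 mg/kg/day and vehicle in log2(signal + 12.4) ± SE for each gene, in gastrocnemius (blue) and soleus (brown), without (circles) and with exercise (squares). Filled symbols passed the limma test at an adjusted p under 0.05: 7 genes in exercised gastrocnemius, 3 in unexercised gastrocnemius and 0 in soleus.

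The 4 treated arrays with exercise differed among themselves. Replicate 2 had the highest signal and replicate 4 the next highest for each of the 9 genes, including Nsdhl and Sc5d. The median of the 9 genes lay 2.52 and 2.12 above the vehicle mean on these arrays, and 1.55 and 1.27 above it on replicates 1 and 3. Summed fast fibre signal was lower on replicates 2 and 4 (161094 and 158792) than on replicates 1 and 3 (373970 and 369690). Other lists set the same arrays apart, as median differences from the vehicle mean. Macrophage markers were at 4.58 and 4.89 on replicates 2 and 4 and at 3.53 and 4.16 on replicates 1 and 3, and cell cycle genes at 3.62 and 3.54 against 2.51 and 2.64. Slow fibre genes were at -3.74 and -1.65 on replicates 2 and 4 and at 2.89 and 2.29 on replicates 1 and 3. Their part in the enzyme values was not tested. The number of genes that passed stayed between 6 and 7 when any 1 array of the comparison was left out. The shares of all probe sets in those fits are not given here, so this range is not read as a result about the enzymes.

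Without exercise the same dose gave a smaller count. Sqle, Cyp51 and Msmo1 were higher in gastrocnemius at 1.0 mg/kg/day, 3 of the 9 genes, while 9.5% of all probe sets passed and 5.7% were higher. The median difference over the 9 genes was 1.06, against 0.03 over all probe sets tested. Sqle read 668, 994 and 85.4 at 1.0 mg/kg/day and 63.5, 41.8, 58.6 and 57.2 with vehicle. The difference was 2.60 ± 0.67 (n = 3 and 4; limma adjusted p = 0.0228). Cyp51 read 3034, 3261 and 936 against 694, 714, 723 and 722, a difference of 1.54 ± 0.36 (limma adjusted p = 0.0147). Its other probe set did not pass, at 0.76 ± 0.39 (limma adjusted p = 0.2). Msmo1 read 1918, 2275 and 717 against 473, 562, 526 and 476, a difference of 1.5 ± 0.37 (limma adjusted p = 0.0185). For each of these genes every treated array was above every control, but the third lay close to the controls. The share of all probe sets that separate in this comparison was not counted.

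The other 6 genes did not pass in unexercised gastrocnemius. Lss read 466, 326 and 233 at 1.0 mg/kg/day against 205, 73.9, 186 and 179 with vehicle, a difference of 1.06 ± 0.36 (limma adjusted p = 0.0589). Dhcr7 read 438, 466 and 298 against 159, 110.0, 167 and 165, a difference of 1.34 ± 0.61 (limma adjusted p = 0.151). For both, treated and control arrays did not overlap. Since separation was not counted over all probe sets, this is not read as a result about the enzymes. Ebp gave 1.03 ± 0.36 (limma adjusted p = 0.0682) and Hsd17b7 gave 0.78 ± 0.32 (limma adjusted p = 0.112), and 1 treated array of each, replicate 3, lay among the controls. Nsdhl gave 0.05 ± 0.21 with a 95% interval from -0.37 to 0.48, and Sc5d gave -0.05 ± 0.27 with an interval from -0.61 to 0.51. For both, all 3 treated arrays lay within the range of the vehicle arrays.

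Replicate 3 of this group was unlike the other two. The median of the 9 genes was 1.48 and 1.47 above the vehicle mean on replicates 1 and 2, and 0.39 above it on replicate 3. The summed signal of 20 macrophage and myeloid markers was 168241 and 186154 on replicates 1 and 2 and 18129 on replicate 3, within the 7860 to 24550 of the unexercised vehicle arrays. Summed fast fibre signal was 313952 and 215402 on replicates 1 and 2 and 688595 on replicate 3. Without replicate 3, 6 genes passed, and 26.8% of all probe sets. Without replicate 1 or without replicate 2, 0 genes passed, with 0.023% and 0.0092% of all probe sets, and 0 passed when only the 2 groups compared were fitted, with 0% of all. With array weights 7 genes passed, with 43.3% of all probe sets, and 7 passed without the 4 arrays of highest myelin signal, with 33.8% of all. The count of the 9 genes thus moved together with the share of all probe sets.

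The test of whether exercise changed the effect of 1.0 mg/kg/day in gastrocnemius called 0 of the 9 genes and 0% of all probe sets. The differences between the effects were all above 0, from 0.04 for Nsdhl to 2.10 ± 0.92 for Sqle (limma adjusted p = 0.705). At an unadjusted p under 0.05 it held 2 genes, Sqle and Msmo1, and 1375 of the 21729 probe sets. The counts of 7 and 3 genes with and without exercise are therefore not shown to differ. Exercise by itself, in vehicle animals, called 0 of 9 genes and 0% of probe sets in gastrocnemius, with differences from -0.81 (Dhcr7) to 0.33 (Hsd17b7). In vehicle soleus it likewise called 0 of 9 and 0% of probe sets, with differences from -0.67 (Sqle) to 0.03 (Lss). Unadjusted p-values under 0.05 numbered 0 of the 9 genes and 724 probe sets in gastrocnemius, and 2 genes and 645 probe sets in soleus.

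At the lower doses no gene of the 9 passed. Without exercise, 0.1 mg/kg/day gave differences from 0.02 (Nsdhl) to 0.80 ± 0.57 (Dhcr7), and 0.5 mg/kg/day from -0.39 (Sc5d) to 0.49 ± 0.62 (Sqle). With exercise, 0.1 mg/kg/day gave -0.02 (Ebp) to 1.19 ± 0.62 (Sqle), and 0.5 mg/kg/day gave -0.48 (Ebp) to 0.85 ± 0.61 (Dhcr7). In each of these 4 limma comparisons 0 genes and 0% of all probe sets passed, and 0 of the 9 genes had an unadjusted p under 0.05, while 593 to 957 probe sets did. The intervals are wide: for Sqle at 0.1 mg/kg/day with exercise the 95% interval ran from -0.09 to 2.47.

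Single low-dose values still stood out. For Sqle the exercised 0.1 mg/kg/day arrays read 108, 69.6, 97.6 and 85.5, all above the exercised vehicle arrays of 7.0 to 62.1. The same groups were separate in the actin ratio (0.248 to 0.334 against 0.35 to 0.469) and in the macrophage marker sum (15279 to 24367 against 9273 to 11750), whose part in this was not tested. For Dhcr7 the exercised 0.5 mg/kg/day arrays read 149, 152 and 158, above the exercised vehicle range of 49.3 to 125. Neither passed the test over all probe sets. With exercise, 1 of the 9 genes separated upward in each low-dose comparison, and without exercise 0 did. The share of all probe sets that separate in this way was not counted, so these values are not read as a low-dose response. Dhcr7 was 2039 on replicate 3 of unexercised 0.1 mg/kg/day, against 219, 75.0 and 136 on the other arrays of that group. On this array 8 of the 9 genes were above the vehicle mean and 5 by over 1, with Sqle at 1.78, Lss at 1.54, Ebp at 1.06 and Msmo1 at 1.05. The array had the highest myelin (95918), adipocyte (149477) and endothelial (46485) marker sums of the 45, the lowest actin ratio, and a macrophage sum of 62135, against 11265 to 12742 on the other arrays of its group. The part of other cell types and of RNA quality in these values was not tested.

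The step from 0.5 to 1.0 mg/kg/day was tested directly. With exercise 7 of the 9 genes were higher at 1.0 mg/kg/day, while 39.7% of all probe sets passed, and they were the 7 that passed against vehicle. Sqle differed by 4.64 ± 0.67 (limma adjusted p = 3.4e-05) and Msmo1 by 2.48 ± 0.37 (limma adjusted p = 4.28e-05). The smallest of the 7 was Hsd17b7, at 0.84 ± 0.32 (limma adjusted p = 0.0378), whose arrays overlapped. Without exercise 3 genes were higher, with 9.33% of probe sets called: Cyp51 by 1.83 ± 0.36, Msmo1 by 1.75 ± 0.37 and Sqle by 2.10 ± 0.67 (limma adjusted p = 0.0481). Without replicate 1 or replicate 2 of unexercised 1.0 mg/kg/day, 0 genes passed this comparison, with 0% and 0.0046% of all probe sets, and 0 passed with only the groups compared, with 0% of all. Both comparisons share the 1.0 mg/kg/day arrays with those against vehicle. Of the 14 tested member probe sets, 9 passed with exercise and 4 without, so some that do not represent their gene passed too. Which ones these were is not given here.

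In soleus no gene of the 9 passed at 1.0 mg/kg/day, with or without exercise, and 0% of all probe sets passed in either limma comparison. Unexercised Sqle read 93.7, 65.1 and 118 at 1.0 mg/kg/day and 139, 129, 168 and 25.3 with vehicle. The treated arrays lay inside the range of the controls, and the difference was -0.10 ± 0.56 with a 95% interval from -1.29 to 1.08. Exercised Sqle read 88.3, 81.5, 98.6 and 194 against 48.4, 18.7, 82.9 and 116. These ranges overlapped too, at 0.81 ± 0.51 with an interval from -0.29 to 1.90. Of the 9 differences, 8 were below 0 without exercise (the exception was Lss at 0.26) and all 9 were above 0 with exercise. Without replicate 3 of unexercised vehicle soleus, Sqle was at 0.13, Hsd17b7 at 0.05 and Sc5d at 0.29 in unexercised soleus, so these signs rest on single arrays. Of the unexercised differences 0, and of the exercised ones 1 (Cyp51 at 0.61 ± 0.27), had an unadjusted p under 0.05, against 593 and 1156 probe sets.

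A single array carried much of the positive soleus values for some of the genes. Replicate 1 of exercised 1.0 mg/kg/day soleus was above the vehicle mean for all 9 genes, with a median of 0.86, against 0.13, 0.06 and 0.10 on the other arrays of the group. Its Dhcr7 signal was 1053, against 135, 256 and 188, and its Cyp51 signal 1407, against 574, 519 and 792. Its myelin marker sum was 78422, against 9420 to 10819 on the others of the group, and its adipocyte marker sum 124649, against 22505 to 30856. Without it, the differences for Lss, Msmo1, Ebp, Sc5d and Dhcr7 were below 0, from -0.02 to -0.34. Those of Sqle, Hsd17b7, Cyp51 and Nsdhl stayed above 0 without any 1 array, with lowest values of 0.42, 0.45, 0.32 and 0.03.

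**Figure D3:**
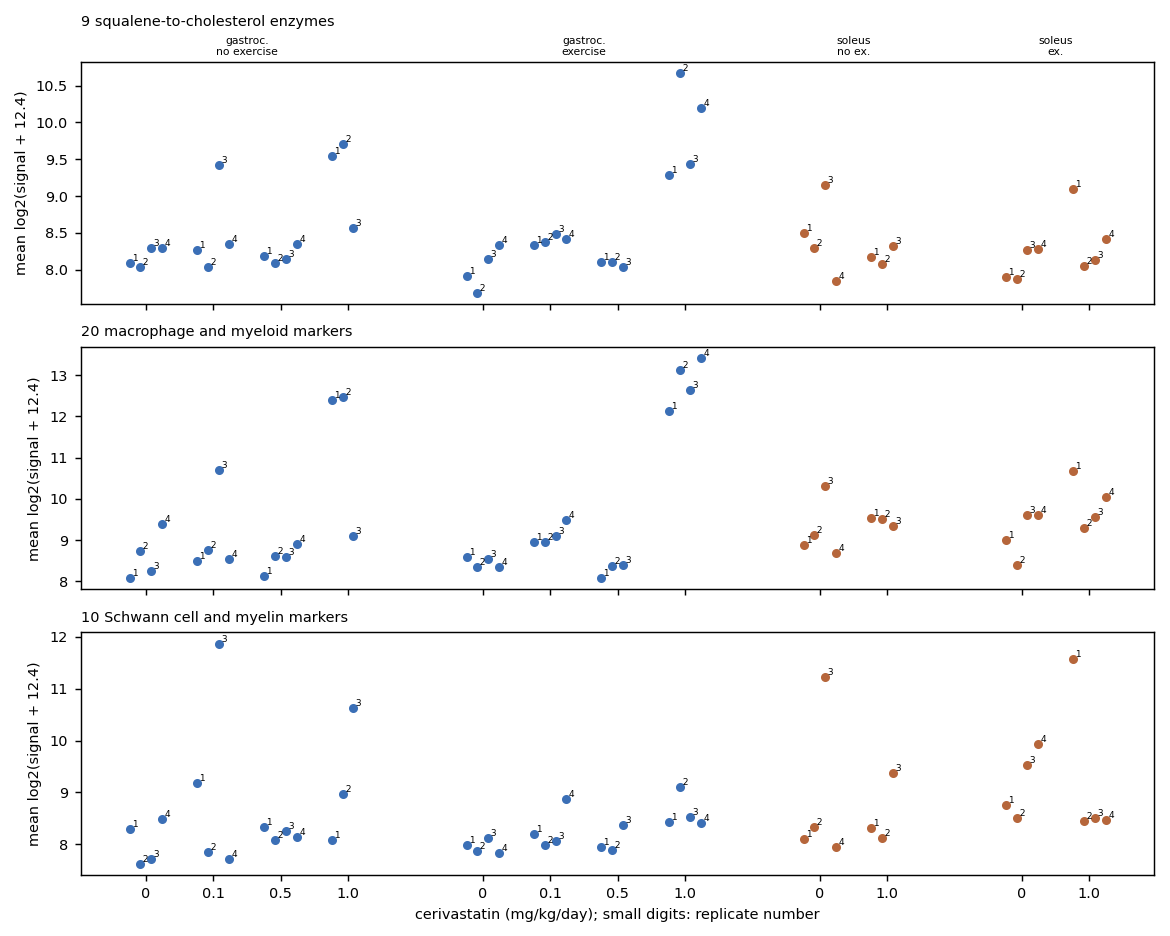
Mean log2(signal + 12.4) on each of the 45 arrays of the 9 enzymes (top), 20 macrophage and myeloid markers (middle) and 10 Schwann cell and myelin markers (bottom), against the dose in mg/kg/day, with replicate numbers beside the dots. The enzymes and the macrophage markers are both high on 6 of the 7 gastrocnemius arrays at 1.0 mg/kg/day and lower on replicate 3 without exercise, where the myelin markers are high.

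The effects in the muscles were compared by an interaction. With exercise, the effect of 1.0 mg/kg/day was lower in soleus than in gastrocnemius for 5 of the 9 genes, with 25.3% of all probe sets called. These were Sqle at -3.89 ± 0.85 (limma adjusted p = 0.00149), Msmo1 at -2.54 ± 0.45 (0.000329), Dhcr7 at -2.61 ± 0.85 (0.0225), Lss at -1.81 ± 0.44 (0.0031) and Cyp51 at -1.46 ± 0.45 (0.0158). Ebp did not pass at -1.16 ± 0.47 (limma adjusted p = 0.0659), nor did Hsd17b7 at -0.39 ± 0.40, Nsdhl at 0.06 ± 0.26 or Sc5d at -0.01 ± 0.45. Without replicate 2 of exercised 1.0 mg/kg/day gastrocnemius, 3 genes passed, with 17.6% of all probe sets. Without exercise 0 genes passed, with 0.0092% of probe sets called, although 6 of the 9 genes and 3929 probe sets had an unadjusted p under 0.05. There Msmo1 had -2.0 ± 0.49 (limma adjusted p = 0.085) and Cyp51 -1.84 ± 0.49 (0.0878), and 5 genes passed without replicate 3 of unexercised 1.0 mg/kg/day gastrocnemius, with 16.4% of all probe sets. Whether exercise changed the effect of 1.0 mg/kg/day within soleus was also tested, and 0 genes and 0% of probe sets passed (1 gene and 705 probe sets at an unadjusted p under 0.05).

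The muscles were also compared without drug. Unexercised vehicle soleus against gastrocnemius called 0 of 9 genes and 7.02% of all probe sets, and the exercised pair called 0 of 9 and 13.2%. Leaving out replicate 3 of unexercised or replicate 2 of exercised vehicle soleus gave 1 gene in the pair concerned, with 4.92% and 11.2% of all probe sets. At an unadjusted p under 0.05 the limma fit held 1 and 3 genes, and 4783 and 6049 probe sets. Hsd17b7 came nearest to the threshold, at -0.81 ± 0.28 in the exercised pair (limma adjusted p = 0.0536), with all soleus arrays below all gastrocnemius arrays. Sc5d was at -0.72 ± 0.32 without exercise (limma adjusted p = 0.171) and -0.83 ± 0.32 with it (0.0755). The other Sc5d probe sets passed in the exercised pair, at -1.01 ± 0.30 (limma adjusted p = 0.0221) and -1.32 ± 0.31 (0.00424). Exercised Sc5d arrays of the representing probe set read 219, 250, 342 and 341 in soleus and 526, 427, 608 and 504 in gastrocnemius, with no overlap. Dhcr7 went the other way with exercise, at 1.47 ± 0.60 (limma adjusted p = 0.101). All 4 of its soleus arrays (152 to 397) were above all gastrocnemius arrays (49.3 to 125). The share of all probe sets whose arrays separate between the muscles was not counted.

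Ordered by group mean, exercised gastrocnemius at 1.0 mg/kg/day was the highest of the 12 groups for 8 of the 9 genes, and unexercised gastrocnemius at that dose was next for 7 of them. The gap between the first and the next group was larger than both groups' SD only for Lss, at 0.85. The gap below the second group was larger than both SDs for Cyp51 (1.34), Msmo1 (1.07) and Ebp (0.69), and not for Sqle, whose unexercised 1.0 mg/kg/day group had an SD of 1.80 around a mean of 8.66. For Nsdhl the first groups were 0.02 to 0.04 apart, and for Sc5d 0.02 to 0.10, within their spread. The lowest group was vehicle with exercise for 7 genes, in gastrocnemius for Sqle, Msmo1 and Dhcr7 and in soleus for Cyp51, Nsdhl, Hsd17b7 and Sc5d. How many of all genes have the same highest or lowest group was not counted, so these orders are not shown to be particular to the enzymes. Against vehicle, 23% of all probe sets were higher in exercised gastrocnemius at 1.0 mg/kg/day.

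Genes of the steps before squalene were read in the same comparisons, from a list of the pathway. In exercised gastrocnemius at 1.0 mg/kg/day, 4 of the 7 tested mevalonate-to-squalene genes were higher and 0 lower, with a median difference of 0.77, where 23% of all probe sets were higher. Idi1, which interconverts the isoprenoid units, differed by 2.69 ± 0.39 (limma adjusted p = 1.79e-05). Acat2, a thiolase that condenses acetyl-CoA, differed by 2.03 ± 0.38 (0.000167), and Fdps, which makes farnesyl diphosphate, by 0.78 ± 0.24 (0.0115). Without exercise 2 of the 7 passed, where 9.5% of all probe sets passed and 5.7% were higher. They were Idi1 at 2.04 ± 0.42 (0.0116) and Acat2 at 1.36 ± 0.41 (0.0383), while Fdps was at 0.56 ± 0.26 (0.161). In soleus 0 of the 7 passed, and Idi1 was at -0.26 ± 0.33 without and 0.37 ± 0.30 with exercise, Acat2 at -0.06 and 0.30, and Fdps at 0.10 and 0.01.

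Among 7 tested partners and other ring enzymes, 3 were higher and 0 lower in exercised gastrocnemius at 1.0 mg/kg/day, where 43.4% of all probe sets passed and 23% were higher. The share of calls in this list is near that background. Erg28, a scaffold of the demethylating complex, differed by 1.73 ± 0.38 (limma adjusted p = 0.000761). Por, which passes electrons to Cyp51 and Sqle, differed by 1.38 ± 0.33 (0.00133), and Cyb5r3, which reduces cytochrome b5 for Sc5d and Msmo1, by 1.25 ± 0.39 (0.012). Without exercise 1 passed, Por at 1.09 ± 0.35 (0.0495), where 9.5% of all probe sets passed and 5.7% were higher. Erg28 was at 1.18 ± 0.41 (0.0662) and Cyb5r3 at 0.79 ± 0.42 (0.228). In soleus 0 passed, and these 3 genes lay between -0.22 and 0.19.

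Of 10 tested genes of sterol sensing and uptake, 5 were higher and 2 lower in exercised gastrocnemius, where 43.4% of all probe sets passed. Insig1, which holds SREBP in the endoplasmic reticulum and is itself an SREBP target, differed by 2.80 ± 0.46 (limma adjusted p = 4.68e-05). Stard4, a cholesterol carrier, differed by 2.08 ± 0.46 (0.000759), and Srebf1, which encodes SREBP-1, fell by 2.06 ± 0.41 (0.000269). Without exercise 1 was higher and 2 were lower, where 9.5% of all probe sets passed and 5.7% were higher. Insig1 was higher at 2.01 ± 0.49 (0.0181), and Srebf1 was among the lower ones at -1.63 ± 0.44 (0.0255), with Stard4 at 1.12 ± 0.50 (0.14). In soleus 0 passed, with Insig1 at 0.03 and 0.34, Stard4 at -0.35 and 0.43, and Srebf1 at -0.38 and -0.31, without and with exercise.

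Of 9 tested genes of sterol export and the oxysterol receptor LXR, 4 were higher and 1 lower, against the same 43.4%. Ch25h, which makes the signalling sterol 25-hydroxycholesterol, differed by 4.56 ± 0.73 (limma adjusted p = 3.95e-05). Soat1, which esterifies cholesterol for storage, differed by 4.27 ± 0.60 (1.46e-05), and Apoe, a carrier of cholesterol secreted by macrophages among other cells, by 2.31 ± 0.48 (0.000465). Without exercise 2 were higher and 1 was lower, where 9.5% of all probe sets passed and 5.7% were higher. The higher ones were Ch25h at 3.22 ± 0.79 (0.0178) and Soat1 at 2.56 ± 0.65 (0.0215), with Apoe at 1.5 ± 0.52 (0.0649). In soleus 0 passed, with Ch25h at 1.08 and 1.30, Soat1 at -0.10 and 0.37, and Apoe at -0.33 and 0.18.

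**Figure D4:**
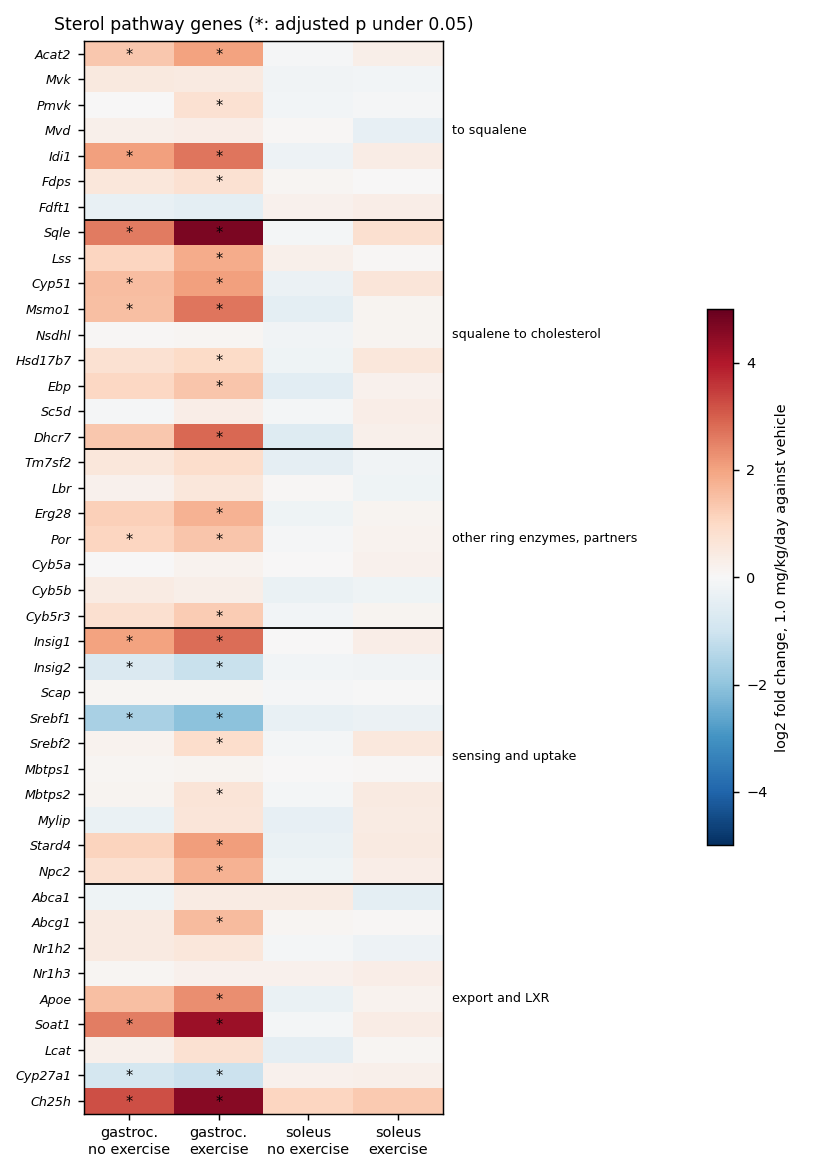
Difference between 1.0 mg/kg/day and vehicle in log2(signal + 12.4) (colour) for the tested genes of 5 sterol gene lists (rows), in gastrocnemius and soleus without and with exercise (columns). Stars mark an adjusted p under 0.05. They appear in both gastrocnemius columns and in neither soleus column, with Sqle at 4.69 and Ch25h at 4.56 the largest values of the exercised gastrocnemius column.

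Markers of macrophages and of dividing cells moved with the enzymes. In exercised gastrocnemius at 1.0 mg/kg/day all 20 tested macrophage and myeloid markers were higher, with summed signals of 141697 to 280058 against 9273 to 11750 with vehicle. Their most abundant genes, Lyz2 (lysozyme) and Lgals3 (galectin-3), differed by 3.42 ± 0.49 (limma adjusted p = 1.51e-05) and 4.21 ± 0.63 (2.25e-05). Without exercise 19 of 20 were higher, with Lyz2 at 2.48 ± 0.53 (0.012) and Lgals3 at 2.67 ± 0.68 (0.0211). All 20 tested cell cycle genes were higher with exercise and 14 without, with Pcna at 1.84 ± 0.25 and 1.25 ± 0.27 and Mcm2 at 1.97 ± 0.29 and 1.11 ± 0.32. Of 16 matrix genes, 13 and 1 were higher. The most abundant of them, Col1a2 at 0.70 ± 0.62 and Col1a1 at 0.78 ± 0.75 with exercise, did not pass. Of 12 fast fibre genes, 10 and 5 were lower, with Myl1 at -1.10 ± 0.21 and Atp2a1 at -1.60 ± 0.31 with exercise. Of 10 Schwann cell and myelin markers 3 and 2 were higher, of 11 endothelial markers 3 and 0, and of 9 myoblast genes 1 and 0, while 3 and 2 of 10 adipocyte markers and 1 and 0 of 11 slow fibre genes were lower, with and without exercise. Beside these last counts, 43.4% of all probe sets passed and 23% were higher with exercise, and 9.5% passed and 5.7% were higher without it. In soleus 0 of these markers passed in either comparison, and the macrophage sums were 14108 to 48508 with vehicle and 25457 to 56583 at 1.0 mg/kg/day. Since the muscle was measured in bulk, a higher signal per cell and more cells of a type with high signal cannot be told apart. The part of the macrophage, dividing and matrix cells in the enzyme differences was not tested.

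The genes most like the mean of the 9 enzymes over the 45 arrays were ranked by Pearson's r, as a description. All arrays share the platform and fall into the same 12 groups, so the points are not independent. The 8 highest were Rap1b (0.957), Acat2 (0.954), Tpd52 (0.943), Pak2 (0.941), Twf1 (0.939), Aif1 (0.938), Nadk (0.938) and Alg5 (0.937). Of these, Acat2 belongs to the sterol lists and Aif1 to the macrophage markers. For Sqle alone the 5 highest were Lcp1 (0.907), Clec4a3 (0.906), Arpc2 (0.904), Mrc1 (0.904) and Cyba (0.903). Mrc1 is on the macrophage marker list used here. That list is short, so a gene absent from it may still be one of macrophages or other myeloid cells.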

How the data were processed

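RNA of 45 muscle samples was hybridised singly to Affymetrix rat arrays. The authors deposited a linear intensity for each probe set, and the submitters' processing notes name MAS5. The sources used here do not give its version or scaling target. The trimmed mean of every array (2% cut at either end) was 600.2 or 600.3, so arrays were used as scaled. The 57 control probe sets were left out. Values were analysed as log2(value + 12.4), the 10th percentile of all values, which shrinks fold changes of dim probe sets. The lowest 30% of probe sets by mean (below 6.03) were not tested. A gene is its tested probe set of highest mean. All 9 member gene identifiers carry the same symbol in RefSeq.

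Group means were fitted with limma (3.58.1, R 4.3.3; lmFit, contrasts.fit, eBayes with a mean-dependent prior) on the 30 gastrocnemius arrays, the 15 soleus arrays, or all 45 for comparisons between muscles, with Benjamini-Hochberg adjustment over all 21729 probe sets in each of 18 comparisons. The scripts were tested on simulated data. The number of arrays limits the precision. Intervals are 95% intervals of limma's moderated statistic. No pair of arrays held identical values.

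All members were named, with the 3 largest changes past the threshold of each other sterol list in exercised gastrocnemius, the genes most like the members, and the 2 most abundant genes of marker lists that moved with them. Members, lists and tests were chosen with earlier results of these data known. Alternatives covered the offset, filter, scaling, gene summary, samples fitted, variance prior, array weights, replicate block and leaving out each array; leaving out the 4 arrays of highest myelin signal or lowest actin ratio was chosen after seeing the data.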

Additional observations from a re-analysis of the deposited data

Results flagged for a closer look

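Within groups of 4 arrays, 81 sets of member values were searched for an array far from the other 3 by Dixon's test, and 7 were found; chance flags about 1 in 20. Sqle was low, 25.3, on replicate 4 of unexercised vehicle soleus, against 129 to 168 on the others. Lss was low, 73.9, on replicate 2 of unexercised vehicle gastrocnemius (others 179 to 205), where Dhcr7 was low too, at 110.0 (others 159 to 167). Lss was also low, 142, on replicate 2 of exercised 0.1 mg/kg/day gastrocnemius (others 255 to 279). On replicate 3 of unexercised vehicle soleus, 1 of the arrays of high myelin signal, Msmo1 was high at 1099 (others 567 to 626) and Hsd17b7 at 314 (others 144 to 162). Dhcr7 was high, 170.2, on replicate 4 of unexercised 0.5 mg/kg/day gastrocnemius (others 130 to 132).

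The effect of 1.0 mg/kg/day with exercise differed between the muscles by the limma interaction for 5 genes: it was lower in soleus by -3.89 for Sqle, -1.81 for Lss, -1.46 for Cyp51, -2.54 for Msmo1 and -2.61 for Dhcr7 (log2).

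The Lss probe set below the filter, used in no test, rose above the highest vehicle array (23.3) on 5 arrays. It read 26.6 on replicate 1 of unexercised 0.1 mg/kg/day gastrocnemius, 38.8 on replicate 1 of the unexercised 1.0 mg/kg/day group, and 25.5, 255.3 and 217.4 on replicates 1, 2 and 4 of the exercised 1.0 mg/kg/day group.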

How the results depend on the processing

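Under 13 settings other than leaving out 1 array, 464 fold changes were recomputed: 421 kept direction and side of the threshold, 26 reversed, 13 newly passed and 4 no longer passed. The 7 genes higher in exercised gastrocnemius numbered 6 to 7 without any 1 array, and Hsd17b7 was lost under quantile normalization. Shares of all probe sets called in the same fit stand in parentheses. Counts and ranges without a parenthesis are given without that background. The unexercised count of 3 (9.5%) was 0 to 6 without 1 array: 0 without replicate 1 (0.023%) or 2 (0.0092%) and 6 without replicate 3 (26.8%) at 1.0 mg/kg/day. It was 0 with only the groups compared (0%), 7 with array weights (43.3%), 7 without the 4 arrays of highest myelin signal (33.8%) and 6 without the 4 of lowest actin ratio (18.7%). Against 0.5 mg/kg/day it was 0 to 4 without 1 array, 0 with only the groups compared (0%), 6 with array weights (46.6%) and 5 without the myelin arrays (34.3%). The exercise by 1.0 mg/kg/day interaction in gastrocnemius gave 1 with array weights (5.08%). The muscle interaction with exercise gave 3 to 6 without 1 array. Without exercise it gave 0 to 5, 7 with array weights (29.3%) and 5 without the myelin arrays (20.1%). Vehicle soleus against gastrocnemius without exercise gave 0 to 1 without 1 array, and 1 with array weights (15.5%), without the myelin arrays (10.3%) or without the low-actin arrays (8.38%). With exercise it gave 0 to 1 without 1 array. It gave 1 with an offset of 1 (12.8%), a filter at the 50th percentile (18.5%) or the mean of all probe sets (12.4%). It gave 2 with quantile normalization (13.1%), median centring (12.4%) or only the groups compared (17.7%), and 3 with array weights (27.8%), without the myelin arrays (23.5%) or without the low-actin arrays (20.9%). The filter at the 50th percentile leaves out Sqle. Causes were not tested.

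Reversed values were all of differences that did not pass. Nsdhl at 1.0 mg/kg/day was -0.05 without and -0.12 with exercise under quantile normalization, -0.04 and -0.01 under median centring, and with exercise -0.13 to 0.30 without 1 array. Sc5d in unexercised gastrocnemius was 0.03 as the mean of its probe sets and -0.19 to 0.05 without 1 array. In unexercised soleus Sqle was 0.10 and Sc5d 0.20 with array weights; without the myelin arrays or the low-actin arrays Sqle was 0.13, Hsd17b7 0.05 and Sc5d 0.29. Without 1 array they ranged from -0.62 to 0.13, -0.32 to 0.05 and -0.41 to 0.29. In exercised soleus Lss was -0.12, Msmo1 -0.01 and Dhcr7 -0.22 with array weights; without the myelin or the low-actin arrays Lss was -0.12, Msmo1 -0.10, Ebp -0.03, Sc5d -0.02 and Dhcr7 -0.34. Without 1 array they ranged from -0.12 to 0.21, -0.10 to 0.29, -0.03 to 0.45, -0.02 to 0.53 and -0.34 to 0.61. The soleus arrays of high myelin signal and of low actin ratio are the same: replicate 3 of unexercised vehicle and replicate 1 of exercised 1.0 mg/kg/day. Within soleus these settings are therefore a single check.

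The replicate block, the replicate number as a term in the model, gave 4 genes in unexercised gastrocnemius at 1.0 mg/kg/day, where Ebp passed at 1.11 (limma adjusted p = 0.0472), and 7 with exercise. It gave 2 and 6 against 0.5 mg/kg/day and 5 in the muscle interaction with exercise, and 0 members in the other comparisons. Shares of all probe sets under the replicate block are not given here, so these counts are not read as a result about the enzymes. The deviations of same-numbered samples had a median r of 0.01 within gastrocnemius (14 of 99 pairs over 0.1) and -0.01 within soleus (9 of 21). Of these pairs, 33 of 99 and 7 of 21 correlated best with their own number. Groups this small give some such matches by chance, and the chance rate was not computed. Between the muscles at the same treatment the median r was 0.06, with 3 of 15 pairs over 0.1, but 9 of 15 correlated best with their own number, a hint from the data and not from the design. If those are the same animals, the comparisons between muscles treat related samples as independent.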
